A study of Homo sapiens with 6 samples.

Results

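The apolipoprotein L (APOL) family has 6 genes in humans, APOL1 to APOL6, all of which lie in 1 stretch of chromosome 22. The members were taken by matching the Ensembl IDs of the deposited table to these 6 symbols, and all 6 were found among its 62710 genes. RNA was sequenced from HT1080, an established human fibrosarcoma cell line, in 3 libraries of untreated cells and in 3 libraries of cells that had received IFNβ at 20 ng/mL, 24 h before harvest. The comparison asks how this treatment changed the RNA level of each member. The labels and the cell culture methods of the study give the IFNβ for HT1080 as human, whereas its RNA sequencing methods name the mouse protein. All libraries come from a single cell line. The study describes its experiments on cells as independently replicated, but the labels do not say which libraries came from separate cultures, so the p-values measure the spread between these libraries.

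APOL proteins share amphipathic helices that insert into membranes. APOL1 is the secreted member, travels in blood on high-density lipoprotein particles and kills trypanosomes by forming ion channels in their membranes. The other members lack a secretion signal and stay inside the cell. Interferons are known to raise several APOL genes in endothelial and epithelial cells.

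Levels are given in FPKM, the number of sequenced fragments per kilobase of gene length, scaled to the size of the library. Genes are thus compared with each other per length, with 1 fixed length per gene, whichever transcripts were present. The libraries held between 22848104 and 32915500 fragments. Whole fragments behind the FPKM values were recovered for 35302 of the 35303 genes above 0, for 16322 of them at the annotated gene length and otherwise at an inferred one. In these libraries VIM, FN1, CD44, SPARC and LOX, which mark mesenchymal cells, had mean levels of at least 16.7 FPKM in untreated cells, whereas S100A4 and THY1, from the same list, had 2.68 and 0.0217 FPKM. The summed level of 5 leukocyte markers was at most 0.231 FPKM in any library, and that of 4 hepatocyte markers at most 0.167 FPKM. Among the epithelial markers, EPCAM, CDH1, KRT5, KRT14 and KRT19 had mean levels of at most 0.0264 FPKM in either group. The keratin genes KRT8 and KRT18 were expressed, and KRT8 rose from 33.8 ± 1.04 to 72.5 ± 0.604 FPKM (S.D., n = 3 per group), and its log2 fold change was 1.10 (limma, adjusted p = 8.7e-07). The epithelial list summed to 79.5 to 81.6 FPKM in untreated and 134 to 140 FPKM in treated libraries. The summed level of 5 endothelial markers was 0.614 to 0.730 FPKM in untreated and 0.742 to 0.885 FPKM in IFNβ-treated libraries, and the part of either list in the APOL levels was not tested. In RNA from whole cultures, more cells that express a gene and more RNA per cell cannot be told apart.

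APOL1, APOL2, APOL3 and APOL6 rose after IFNβ, and their levels in the treated libraries were about 4 to 23 times those in untreated cells. APOL4 and APOL5 stayed at or near 0 FPKM in both groups. The 4 members with a mean of at least 0.1 FPKM over the 6 libraries were tested, each of them above 0.1 FPKM in every untreated library too. All of these 4 passed the thresholds as higher after IFNβ (adjusted p-value under 0.05 and log2 fold change of at least 1), with log2 fold changes between 1.97 and 4.01. Among the 20716 genes tested, 3.49% were called higher and 0.739% lower, and the median log2 fold change was 0.00017. The untreated and treated libraries did not overlap for any of the 4 members, and 22.3% of all genes tested were separated in this direction.

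APOL1 (ENSG00000100342) lies on chromosome 22 from 36253010 to 36267530 on the plus strand of GRCh38. Its level was 6.42, 6.62 and 6.71 FPKM in the untreated libraries and 78.1, 82.2 and 81.2 FPKM in the IFNβ-treated libraries. All treated libraries were far above the untreated ones, and the spread within each group was small, with a coefficient of variation of 2.29% and 2.69%. The mean rose from 6.58 ± 0.151 to 80.5 ± 2.16 FPKM (S.D., n = 3 per group), which is 12.2 times higher. The log2 fold change was 3.59 ± 0.03 (S.E., adjusted p = 6.7e-09 by limma). Behind these values stood 507 to 764 fragments per untreated library and 7102 to 8313 per treated library. In untreated cells 28.3% of the genes tested had a higher mean level than APOL1, and after IFNβ 2.02% did.

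APOL2 (ENSG00000128335), an intracellular member found at the endoplasmic reticulum, is the next gene to APOL1, from 36226203 to 36239954 on the minus strand. Its level was 11.0, 9.66 and 10.3 FPKM in untreated cells and 40.6, 40.3 and 40.8 FPKM after IFNβ. It was the most highly expressed member before treatment. Its mean rose from 10.3 ± 0.648 to 40.6 ± 0.261 FPKM (S.D., n = 3 per group), 3.93 times higher, and the log2 fold change was 1.97 ± 0.05 (S.E., adjusted p = 8.2e-07 by limma). This was the smallest fold change of the members tested, whereas its increase of 30.2 FPKM was exceeded only by that of APOL1, which was 73.9 FPKM.

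APOL3 (ENSG00000128284), a cytosolic member with detergent-like activity against bacterial membranes, lies from 36140330 to 36166177 on the minus strand. It had 0.222, 0.245 and 0.180 FPKM in untreated cells, from 30, 43 and 35 fragments. After IFNβ it had 5.11, 5.21 and 4.65 FPKM, from 929, 769 and 794 fragments. The least abundant of the expressed members thus showed the largest ratio, with a mean that was 23.1 times higher after IFNβ (0.216 ± 0.0331 against 4.99 ± 0.297 FPKM, S.D., n = 3 per group). The log2 fold change was 4.01 ± 0.11 (S.E., adjusted p = 1.8e-06 by limma). Because the untreated level is close to the constant of 0.1 added before taking logarithms, this value understates the ratio, and it was 2.30 with a constant of 1 and 4.48 with 0.01.

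APOL6 (ENSG00000221963), reported to promote cell death through a motif like that of BH3-only proteins, lies from 35648395 to 35668409 on the plus strand, at the far end of the cluster from APOL1. Its level was 2.55, 2.99 and 2.60 FPKM in untreated cells and 21.3, 20.0 and 20.4 FPKM after IFNβ. The groups were again fully separated. The mean rose from 2.71 ± 0.239 to 20.6 ± 0.718 FPKM (S.D., n = 3 per group), 7.58 times higher, and the log2 fold change was 2.88 ± 0.06 (S.E., adjusted p = 7.5e-07 by limma).

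APOL4 (ENSG00000100336, from 36189124 to 36204840 on the minus strand) and APOL5 (ENSG00000128313, from 35717872 to 35729483 on the plus strand) were under the filter and were not tested. Little is known of the function of either gene. APOL4 stood at 0 in each untreated library, and the treated libraries held 2, 1 and 3 of its fragments, a level of 0.0147, 0.00906 and 0.0235 FPKM. APOL5 was listed at 0 in all libraries except IFNβ replicate 2, where it had 1 fragment (0.0278 FPKM). No library had more than 3 fragments of either gene, so no fold is given. With 3 fragments as the limit that a count of 0 allows, up to 0.0297 FPKM of APOL4 and 0.0913 FPKM of APOL5 would have been missed in the shallowest untreated library, for counting error only.

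**Figure D1:**
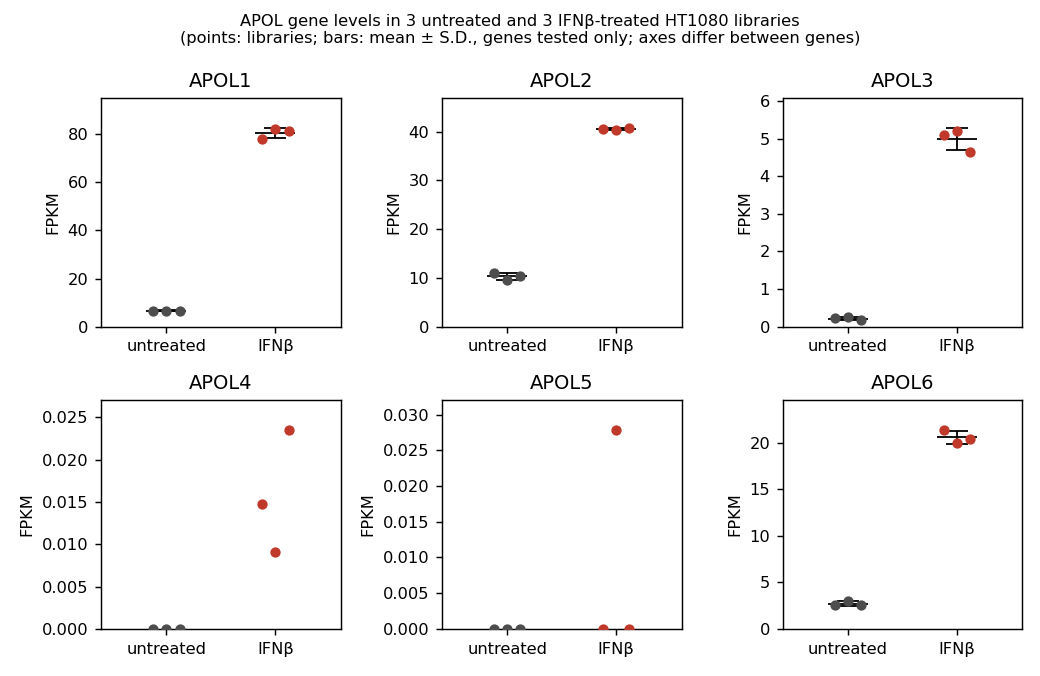
Level of each APOL gene in FPKM (vertical axes, which differ between genes and start at 0) in the 3 untreated and 3 IFNβ-treated libraries. Points are libraries and bars show mean ± S.D. for the genes tested, and the 2 groups do not overlap for APOL1, APOL2, APOL3 and APOL6, while APOL4 and APOL5 stay under 0.03 FPKM.

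The family as a whole went from 19.8 ± 0.317 to 147 ± 1.35 summed FPKM (S.D., n = 3 per group), 7.40 times higher, a description for which no test was run. The shares of the members differed between the groups. APOL2 made up 54.4%, 49.5% and 52.1% of the summed level in untreated cells and 28.0%, 27.3% and 27.7% after IFNβ. APOL1 made up 31.9%, 33.9% and 33.9% before and 53.8%, 55.7% and 55.2% after treatment. Thus the order of levels in untreated cells was APOL2, APOL1, APOL6 and APOL3, and after IFNβ APOL1 stood above APOL2, with no overlap between the libraries of neighbours in either order. Shares and order depend on the gene lengths used. In fragments, APOL6 (586, 892 and 863) stood above APOL1 (507, 679 and 764) in each untreated library. APOL6 kept a similar share, 13.7% ± 1.41 before and 14.0% ± 0.621 after (S.D., n = 3 per group). APOL3 went from 1.09% ± 0.175 to 3.40% ± 0.208 (S.D., n = 3 per group).

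**Figure D2:**
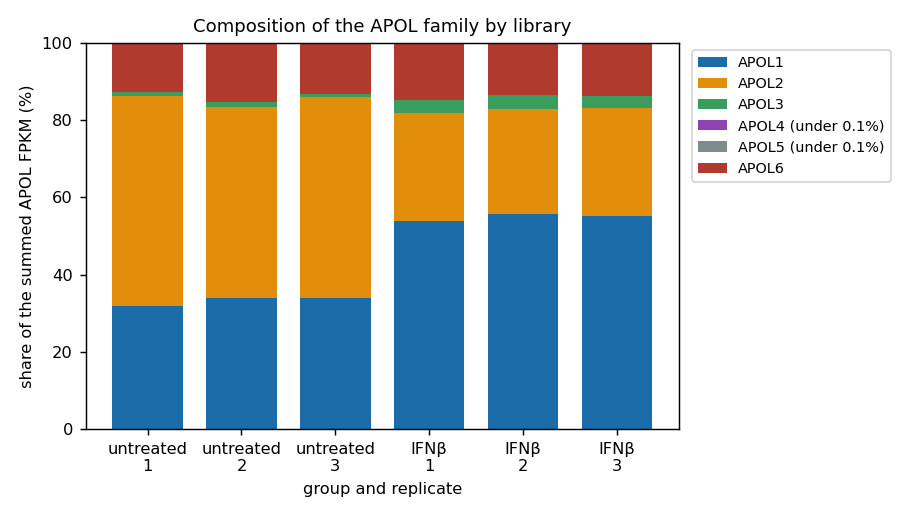
Share of each APOL gene in the summed APOL FPKM of a library (vertical axis, percent) for the 3 untreated and 3 IFNβ-treated libraries. APOL2 is the largest part of each untreated bar, at 49.5% to 54.4%, and APOL1 the largest part of each treated bar, at 53.8% to 55.7%.

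To ask whether members responded by different amounts, the difference in log2(FPKM + 0.1) between each pair of tested members was taken within each library and compared between the groups. There are 6 such pairs. The ratio of APOL1 to APOL2 was 0.586, 0.685 and 0.651 in untreated cells and 1.92, 2.04 and 1.99 after IFNβ, so the ratio between them was 3.08 times higher after treatment on the scale with the constant (difference in log2 fold change 1.62, standard error 0.07). APOL1 also gained more than APOL6 (0.71, standard error 0.08), and APOL2 gained less than APOL6 (-0.91, standard error 0.12). For all 6 pairs the groups were fully separated, and the exact two-sided permutation test gave p = 0.10, also after adjustment over the pairs. That is the smallest p-value 3 libraries against 3 allow, so none of these differences could pass 0.05.

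The place of APOL3 in this order depended on the constant. With 0.1, APOL3 gained more than APOL1 (APOL1 minus APOL3 -0.42, standard error 0.11) and more than APOL6 (1.14, standard error 0.09). With a constant of 1 both differences turned around, to 1.13 for APOL1 minus APOL3 and -0.24 for APOL3 minus APOL6. On recovered fragments with limma-voom, which needs no such constant on the FPKM scale, the log2 fold change was 4.53 (standard error 0.19) for APOL3, 3.61 (standard error 0.05) for APOL1, 2.92 (standard error 0.05) for APOL6 and 1.98 (standard error 0.04) for APOL2.

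**Figure D3:**
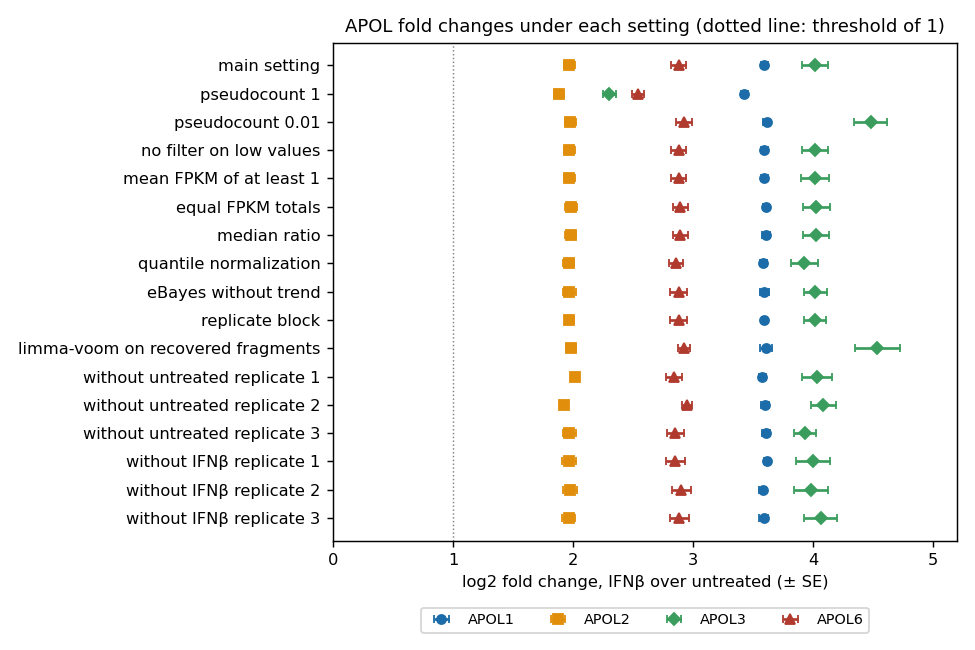
Log2 fold change of the 4 tested APOL genes (horizontal axis, IFNβ over untreated, with standard errors) under the main setting and 16 alternatives (rows), with the threshold of 1 as a dotted line. Each gene stays above the threshold in every row, and APOL3 leaves its place above APOL1 and APOL6 only with a pseudocount of 1.

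The APOL genes sit close together and are similar in sequence, so reads could be shared between them. In GENCODE release 29 no other annotated gene overlaps any of the 6. No stretch of 150 bases, the read length, was identical between the annotated transcripts of a member and those of another gene. Of stretches of 50 bases, at most 0.608% were shared with another member, which was the value of APOL1, and at most 3.30% with a gene outside the family, again for APOL1.

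The cluster spans 619 kb, and its members are not contiguous. APOL6 and APOL5 lie on one side of RBFOX2, a splicing factor gene, and APOL3, APOL4, APOL2 and APOL1 on the other. RBFOX2 (from 35738736 to 36028425) had 14.6 ± 0.201 FPKM in untreated cells and 14.7 ± 0.102 after IFNβ (S.D., n = 3 per group), and the log2 fold change was 0.0092 ± 0.02 (S.E., adjusted p = 0.80 by limma). MYH9, the nonmuscle myosin heavy chain gene that follows APOL1, had 133 ± 2.06 and 120 ± 0.553 FPKM (S.D., n = 3 per group) and a log2 fold change of -0.14 ± 0.02 (S.E., adjusted p = 0.0013 by limma).

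Between the members of the cluster and within 500 kb on either side of it there are 47 other annotated genes, RBFOX2 and MYH9 included. Of these, 13 were tested and 34 were under the filter. None of the 13 passed both thresholds with limma, and none with limma-voom, against 4.22% of all genes tested with limma. Their log2 fold changes ran from -0.71 for HMOX1, the heme oxygenase gene, to 0.81 for the pseudogene RPS15AP38, with a median of -0.14. RPS15AP38 only just passed the filter, at a mean of 0.102 FPKM. Its groups overlapped and its standard error was 0.67 (limma, adjusted p = 0.42). The next highest was TOM1 at 0.40. An unadjusted and also an adjusted p-value under 0.05 was found for 9 of the 13, 2 higher and 7 lower. Of all genes tested, 32.7% had such an adjusted p-value.

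**Figure D4:**
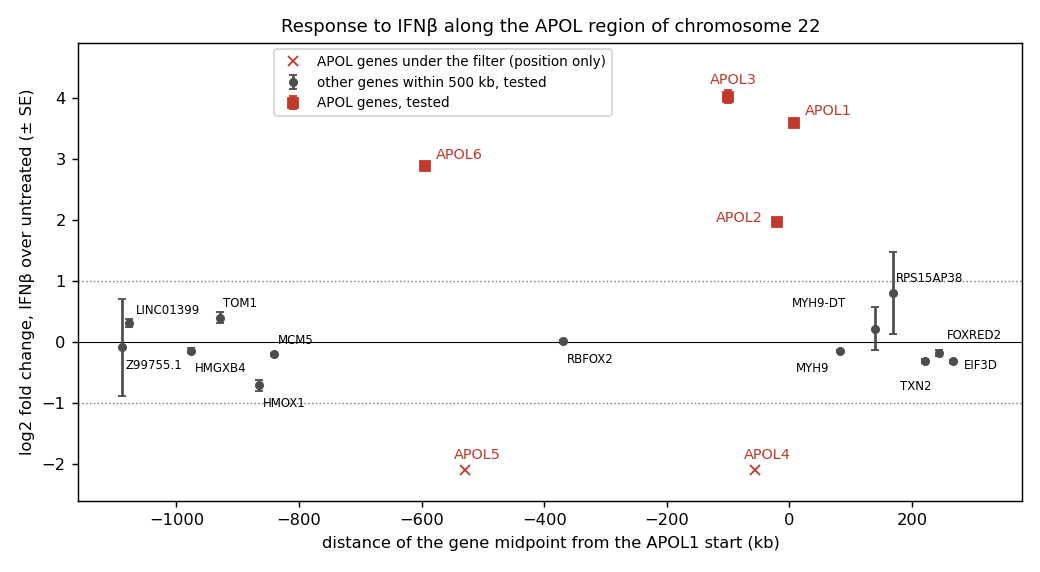
Log2 fold change after IFNβ (vertical axis, with standard errors) of the tested genes in the APOL region of chromosome 22, placed by the distance of their midpoint from the start of APOL1 (horizontal axis, kb), with dotted lines at 1 and -1. The 4 tested APOL genes lie between 1.97 and 4.01 and the 13 other genes between -0.71 and 0.81. The highest of the 13, RPS15AP38, only just passed the filter. Crosses show only where APOL4 and APOL5 lie.

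Other genes related to the family by name, by protein contact or by role were described as lists. APOLD1, an endothelial gene whose protein shares the APOL domain, lies outside the cluster and had 0.155 ± 0.0516 and 0.224 ± 0.0332 FPKM (S.D., n = 3 per group, adjusted p = 0.33 by limma). Of 18 apolipoprotein genes outside the family, 6 were tested. None passed both thresholds with limma or with limma-voom, against 4.22% of all genes tested with limma. So few genes cannot show a difference from that share. An unadjusted and also an adjusted p-value under 0.05 with limma was found for 3, 1 higher and 2 lower. Of all genes tested, 32.7% had such an adjusted p-value. The median log2 fold change of the 6 was -0.081. These genes encode lipid carriers of plasma, such as APOE (0.887 ± 0.0985 FPKM in untreated and 0.901 ± 0.196 FPKM in treated cells, S.D., n = 3 per group), the secreted chaperone clusterin (CLU, log2 fold change 0.17) and the mitochondrial proteins APOO (-0.49) and APOOL (-0.17). The other components of the trypanosome-killing particle and the related blood genes HPR, HP, APOA1, HBA1, HBB and PON1 were all under the filter, with a summed level of at most 0.153 FPKM in any library.

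APOL proteins have been linked to 11 partner genes on the list, of which 10 were tested. None passed both thresholds with limma or with limma-voom, against 4.22% of all genes tested with limma, a share from which 10 genes cannot show a difference. An unadjusted p-value under 0.05 with limma was found for 6. After adjustment 5 remained under 0.05, all of them lower after IFNβ (NCS1, MYH9, MYH10, PHB2 and VAPA), against 32.7% of all genes tested in either direction. NCS1, a calcium sensor that binds APOL3 and activates the lipid kinase PI4KB, had 31.7 ± 0.117 FPKM in untreated cells and 20.1 ± 0.161 FPKM after IFNβ (S.D., n = 3 per group), a log2 fold change of -0.66 ± 0.02 (S.E., adjusted p = 1.6e-06 by limma) that is under the fold threshold. PI4KB itself had a log2 fold change of 0.0063 (limma, adjusted p = 0.87). VAMP8, a membrane fusion protein, had a log2 fold change of 0.93 (limma, adjusted p = 0.074) from 0.342, 0.565 and 0.984 FPKM in untreated cells, a wide spread at a low level. Without untreated replicate 3, the number of partners called was 1.

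Genes listed for defence of the cytosol beside APOL3 were also higher after IFNβ. The lists were chosen with earlier results of these data known, so their counts are a description and not a test. Of the 8 defence genes, 7 passed both thresholds, against 3.49% of all genes tested that were called higher. The other, the inflammatory caspase CASP4, was also higher but under the fold threshold, with a log2 fold change of 0.79 (limma, adjusted p = 3.5e-05). Among the 7, GBP4 and GBP5 had untreated means of 0.0112 and 0.0438 FPKM. Only their treated libraries brought them over the filter. The median log2 fold change of the 8 was 2.63. GBP1, a GTPase that coats bacteria, rose from 5.49 ± 0.298 to 54.6 ± 1.18 FPKM (S.D., n = 3 per group), and the log2 fold change was 3.29. Of 8 genes of type I interferon signalling, the transcription factor genes STAT2, IRF9 and IRF1 passed both thresholds as higher, against 3.49% of all genes tested. The median log2 fold change of the list was 0.55. With a pseudocount of 1, or with only genes that reached a mean of 1 FPKM, the number called was 2. Without the fold threshold, 6 were higher and 1, IFNAR1, was lower, against 32.7% of all genes tested in either direction. The 6 included IRF2 (log2 fold change 0.72), JAK1 (0.38) and TYK2 (0.16). STAT2 went from 3.88 ± 0.0940 to 40.6 ± 0.781 FPKM (S.D., n = 3 per group), a log2 fold change of 3.35 (limma, adjusted p = 8.5e-09). The receptor genes IFNAR1 and IFNAR2 had log2 fold changes of -0.20 and 0.32.

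**Figure D5:**
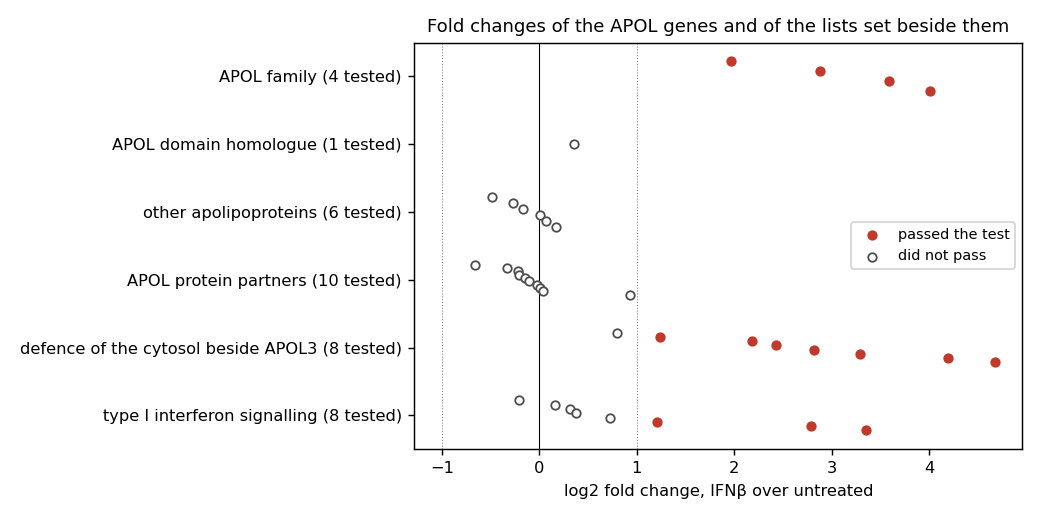
Log2 fold change after IFNβ (horizontal axis) of every tested gene of the APOL family and of the lists set beside it (rows), with filled points for genes that passed both thresholds and dotted lines at 1 and -1. The 4 APOL genes and 7 of 8 cytosolic defence genes are filled, and none of the other apolipoproteins or APOL protein partners is. Of all genes tested, 4.22% passed both thresholds. GBP4 and GBP5, among the 7, reached the filter only through their treated libraries.

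The genes most like each member were found by the Euclidean distance of log2(FPKM + 0.1) over the 6 libraries, after subtracting the untreated mean of each gene. For APOL1 they were RASGRP3 (distance 0.115), UBE2L6 (0.121) and PARP10 (0.130), the last a mono-ADP-ribosyltransferase. UBE2L6, the conjugating enzyme of ISG15, rose 11.8 times to 134 FPKM, whereas RASGRP3, with 0.0200 FPKM in untreated cells, rose 66.1 times, so its likeness to APOL1 rests on the constant. For APOL2 they were TRIM38 (0.117), SLC16A4 (0.128) and TRIM14 (0.134). For APOL3 they were SAMHD1 (0.174), TAP1 (0.197) and PARP14 (0.213), whose ratios of 16.7, 15.7 and 16.9 were below the 23.1 of APOL3 itself. For APOL6 they were IFITM3 (0.142), TDRD7 (0.188) and ISG20 (0.208).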

How the data were processed

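The deposited table holds FPKM that the authors computed for each Ensembl gene and library, with replicates kept apart. Per the labels, reads were paired and 150 bases long, and the submitters' processing notes name fastp, HISAT2, StringTie and GRCh38; versions and the annotation release are not given in the sources used here. Places come from GENCODE release 29 on GRCh38, which lacks 4436 of the table's IDs. FPKM were whole fragments over a gene length for 35302 of 35303 genes above 0, within a tolerance of 1e-06, which gave the fragments per library. The length was that of release 29 for 16322 genes, and otherwise the smallest that gave whole numbers. For APOL1, APOL2, APOL3, APOL4 and APOL6 this was 3458, 3417, 5905, 4420 and 10065 bases, against 3519, 3484, 5901, 4377 and 10121 in release 29. Their fragments and limma-voom values rest on these inferred lengths.

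The test was limma 3.58.1 under R 4.3.3 (lmFit, then eBayes with a trend). It was run on log2(FPKM + 0.1) where the mean over the 6 libraries reached 0.1 FPKM, with Benjamini-Hochberg adjustment over all of them. The study's count test, DESeq2, was not run, since the deposited unit is FPKM, and the recovered fragments entered only the limma-voom alternative. Pairs of members were compared by exact permutation (scipy 1.17.1). The alternatives were other pseudocounts, filters and scalings, eBayes without trend, a replicate block, limma-voom on recovered fragments, each library left out, and no fold threshold. The members and lists were chosen with earlier results of these data known. Genes named were the members, list members, neighbours within 500 kb and the 3 most similar genes per tested member. Of the members, 0 of 6 matched an entry of the RefSeq promoter table (GRCh38.p14), and promoter motifs were not analysed here. A gene of the interferon signalling list is not reported here.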

Additional observations from a re-analysis of the deposited data

How the results depend on the processing

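All 4 tested APOL genes were called under each of the 17 alternatives, and their log2 fold changes ran from 3.43 to 3.61 for APOL1, 1.88 to 2.01 for APOL2, 2.30 to 4.53 for APOL3 and 2.54 to 2.95 for APOL6. With each library left out they ran from 3.57 to 3.61, 1.92 to 2.01, 3.93 to 4.08 and 2.84 to 2.95. The range of APOL3 came from the pseudocount and from limma-voom, as its untreated level is near 0.1 FPKM. With a pseudocount of 1 in place of 0.1, the differences APOL1 minus APOL3 (1.13) and APOL3 minus APOL6 (-0.24) reversed. With libraries left out these 2 differences stayed between -0.48 and -0.32 and between 1.08 and 1.19.

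Same-numbered libraries of the groups deviated together very little, with correlations over genes of 0.014, 0.023 and 0.031. Libraries with different numbers had values from -0.029 to 0.0058. Deviations were taken from the mean of each group, which makes these values lower on average when the same-numbered ones are above 0. As all of these correlations are small, the numbers are not taken as pairs. With the replicate block the log2 fold changes were the same as without it, 3.59 for APOL1, and all 4 genes stayed called, with 829 calls among all genes against 875. The calls among all genes numbered 304 with a pseudocount of 1, 425 with a mean of at least 1 FPKM and 6778 with no fold threshold. The list genes called numbered 9 to 11 under the 16 alternatives that kept the fold threshold. The defence list of 8 gave 7 each time. The interferon signalling list of 8 gave 2 or 3 and the partner list of 11 gave 0 or 1. Over all genes the calls ran from 304 with a pseudocount of 1 to 1104 with limma-voom, each of 20716 tested. Under the same 16 alternatives 0 of the chromosome 22 neighbours were called. Without the fold threshold, 9 of the 13 neighbours tested had an adjusted p-value under 0.05 by limma, against 32.7% of all genes tested. APOL4 had 0 fragments in each untreated library and 2, 1 and 3 in the treated ones, and APOL5 had 1 fragment in 1 treated library. Both were under the filter, and these counts are too small for a fold.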
